A study of Mus musculus with 8 samples.

Results

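The mitochondrial ribosomal protein genes were taken as all protein-coding genes of the deposited count table whose symbol starts with Mrpl or Mrps followed by a number. They were 78 of 54532 genes, 49 named for the large subunit (Mrpl) and 29 for the small subunit (Mrps). RNA had been sequenced from GFP+ cells sorted from 8-month-old mice that all carried Tie2e-cre and the mTmG reporter, which switches from a red to a green membrane protein (mG+) in cells where Cre has acted. The knockout (KO) genotype was Tie2e-cre; TERTfl/fl; mTmG and the control (WT) genotype was Tie2e-cre; TERT+/+; mTmG, so both carried Cre and only the *Tert* allele differed. There were 4 pairs of 1 WT and 1 KO library, from subcutaneous adipose tissue (SAT) on high fat diet (HFD), SAT on chow, visceral adipose tissue (VAT) on chow and gastrocnemius muscle on chow. The sources used here do not give the number of mice behind a library, or say if mice gave more than 1 of the chow tissues.

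Mitochondrial ribosomes translate the few proteins that mitochondrial DNA encodes, all of them subunits of the oxidative phosphorylation (OXPHOS) complexes. Their RNAs come from mitochondrial DNA, whereas their proteins are encoded in the nucleus, made in the cytosol and imported. Some of the proteins have a counterpart in bacterial ribosomes, and others are found only in mitochondria. By these classes 45 of the 78 genes had a bacterial homologue (29 large, 16 small) and 33 were mitochondria-specific (20 large, 13 small). *Mrps18a* and *Mrps18b*, paralogues of the bacterial homologue *Mrps18c*, were counted among the mitochondria-specific genes. A few names are older than the structures: Mrps30 and Mrps18a proteins sit in the large subunit, and the Mrps36 protein is known as a part of the 2-oxoglutarate dehydrogenase complex.

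The libraries held 6214269 to 18855772 counts, and 77 of the 78 genes passed the minimum mean of 10 counts (mean counts from 65.75 to 692.25). Because Tie2 regulatory sequence can also be active in some blood cells, the sorted cells were checked against markers, given as summed counts per 1e+06 counts (CPM, scaled between libraries by TMM). The 12 endothelial markers were all present in every library, summing to 391 to 800 CPM in SAT and 2024 to 2951 CPM in VAT and muscle. Macrophage markers reached 12325 and 12607 CPM in VAT, and neutrophil markers 26643 and 31123 CPM in muscle. In the SAT libraries B cell markers summed to 999 to 1761 CPM and T cell markers to 1019 to 2464 CPM. Stromal markers summed to 777 to 3392 CPM there and macrophage markers to 375 to 2019 CPM. Each value below is therefore for a mixed sort. In such bulk samples fewer cells of a type and less RNA per cell cannot be told apart. *Tert* counted 114 in WT and 0 in KO for SAT HFD, 70 and 11 for SAT chow, and 24 and 7 for muscle. The VAT pair counted 3 in WT and 9 where the label says KO, so *Tert* does not show the genotype of that pair.

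The genes lay on 17 chromosomes, and their starts were often close to another gene's. In GENCODE M21 (GRCm38), 18 of 78 (23.1%) had a protein-coding gene on the other strand starting within 1000 bases upstream, against 6.79% of 21938 protein-coding genes. *Mrpl49*, for example, started 59 bases from *Fau*, which encodes a cytosolic ribosomal protein. RefSeq promoter windows (250 bases before to 50 after each start, GRCm38.p6) were matched by symbol for 69 of the 78 genes, with 75 windows. The letters CCGGAAG, bound by ETS factors such as GABP, were found on either strand in 26 of 69 genes (37.7%), against 9.93% of all 27025 genes with a window and 18.5% of 10682 other protein-coding genes that passed the count minimum. The letters AAGATGGC, bound by YY1, were in 12 genes (17.4%, against 3.19% and 4.78%). The NRF1 core GCATGCGC was in 8 genes (11.6%, against 3.05% and 5.5%). The CRE letters TGACGTCA were in 2 genes (2.9%, against 2.03% and 3.39%). Of 43 large and 26 small subunit genes with a window, 15 and 11 held the ETS letters and 6 and 6 those of YY1. The NRF1 core was in 7 and 1 of them and the CRE letters in 2 and 0. At least 1 of these 4 motifs, none of which contains another, was in 39 genes (56.5%), against 16.4% of all genes and 28.3% of the other protein-coding genes that passed the count minimum.

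Upstream sequences are shown for the 4 genes with the lowest KO over WT ratio in SAT chow among those whose 150 bases before the start held a motif and overlapped no annotated exon. Each is written 5′ to 3′ on the gene's strand and ends at the base before the start, with the ETS letters or their reverse complement in capitals. They lie at chr11:115403602-115403751 (plus strand, *Mrpl58*), chr8:71464776-71464925 (plus, *Mrpl34*), chr14:54426759-54426908 (plus, *Mrpl52*) and chr9:98601680-98601829 (minus, *Mrps22*) in GRCm38.
Mrpl58: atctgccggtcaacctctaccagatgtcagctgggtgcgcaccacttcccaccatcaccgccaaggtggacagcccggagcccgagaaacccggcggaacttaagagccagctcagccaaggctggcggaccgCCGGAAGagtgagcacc
Mrpl34: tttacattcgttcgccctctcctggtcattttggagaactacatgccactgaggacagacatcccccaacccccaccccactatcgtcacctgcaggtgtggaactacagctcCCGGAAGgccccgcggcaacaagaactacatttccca
Mrpl52: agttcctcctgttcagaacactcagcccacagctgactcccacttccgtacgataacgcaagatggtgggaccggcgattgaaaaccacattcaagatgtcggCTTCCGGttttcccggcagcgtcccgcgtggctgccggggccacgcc
Mrps22: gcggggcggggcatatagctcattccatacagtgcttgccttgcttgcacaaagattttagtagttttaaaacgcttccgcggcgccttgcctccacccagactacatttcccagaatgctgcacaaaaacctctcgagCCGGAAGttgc
The ETS letters began 17, 37, 47 and 11 bases before the start of *Mrpl58*, *Mrpl34*, *Mrpl52* and *Mrps22*. Genes with and without the ETS letters had nearly the same median log2 ratio of KO over WT in SAT chow, -1.46 (25 genes) and -1.39 (43 genes).

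Levels between genes were compared per length, as counts per gene length scaled to a sum of 1e+06 (TPM). The mean TPM over the 8 libraries ran from 4.16 to 74.1, with a median of 15.6 over all measured members, 18.6 for large and 14.6 for small subunit genes. The highest were *Mrpl52*, *Mrps21*, *Mrpl34*, *Mrpl24* and *Mrpl54*, and the lowest were *Mrpl47*, *Mrps25*, *Mrps22*, *Mrps10* and *Mrpl17*. *Mrpl52*, a mitochondria-specific gene, stood at 109 and 71.8 TPM (WT, then KO) in SAT HFD, 98.0 and 58.6 in SAT chow, 50.9 and 72.2 in VAT, and 66.0 and 66.9 in muscle. *Mrpl47* stood at 8.55 and 6.38 TPM in SAT HFD, 4.10 and 2.62 in SAT chow, 1.36 and 1.09 in VAT, and 4.36 and 4.79 in muscle. The proteins are built into the ribosome in equal numbers for most subunits. The TPM values of their genes spread over more than an order of magnitude, in a like order in every library. The divisor was the gene length deposited with the counts (607 to 8631 bases), the same in every library. *Mrpl17* (7605 bases) and *Mrpl34* (607 bases) had mean counts of 213.125 and 215.125, but mean TPM of 5.56 and 72.0. How far the divisor set the spread and the order was not tested. Spearman's rho of the members' TPM between libraries ran from 0.687 to 0.945 over the 28 library pairs, a description over genes that share length and composition.

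*Mrpl53*, a mitochondria-specific large-subunit gene at chromosome 6:83109040-83109939 (GRCm38), counted 0 in all 8 libraries. If its reads could be assigned to it, that allows at most 3 counts or 0.184 to 0.434 CPM in a library. In GENCODE M21, 88.0% of its exon bases lie under exons of *Gm42688* on the same strand, which counted 3 to 40. How reads on shared bases were counted was not given, so the 0 may not bound the level of *Mrpl53*. Exons of 33 of the 78 genes overlapped those of another gene, 28 of them a gene on the opposite strand, and whether counting used strand was not given in the sources used here. Over 50% of the exon bases were shared in 3 genes: *Mrpl53*, *Mrps34* (77.8%, with *Mapk8ip3* and *Nme3*) and *Mrps25* (69.8%, with *Nr2c2*). Values of *Mrpl53*, *Mrps34* and *Mrps25* are uncertain for that reason. Of 5 pseudogenes named after members, 3 held more than 1% of the parent's counts, at most 2.35% (*Mrpl23*).

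Summed over the members, the WT library of SAT chow stood apart from the other 7. The members took 2649 CPM there, against 1345 and 1306 CPM in SAT HFD (WT, then KO), 1082 in the SAT chow KO library, 969 and 1172 in VAT and 1277 and 1331 in muscle. It was the highest of the 8 libraries for 73 of 77 members, against 26.2% of all genes tested. The exceptions were *Mrps10*, *Mrps6*, *Mrps28* and *Mrpl27*. The same library also differed from the others in features that are no part of the ribosomal proteins. The nuclear RNA *Malat1* was at 299 CPM in it and at 2176 to 6005 CPM in the other 7, and the mitochondrial rRNAs counted 117756 in it, 16374 in SAT chow KO, 20485 in SAT HFD KO and 198 to 677 in the other 5. An average count in it fell on a gene of 4552 bases, against 5629 to 6324 bases elsewhere. The part of these differences in the members' level was not tested.

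**Figure D1:**
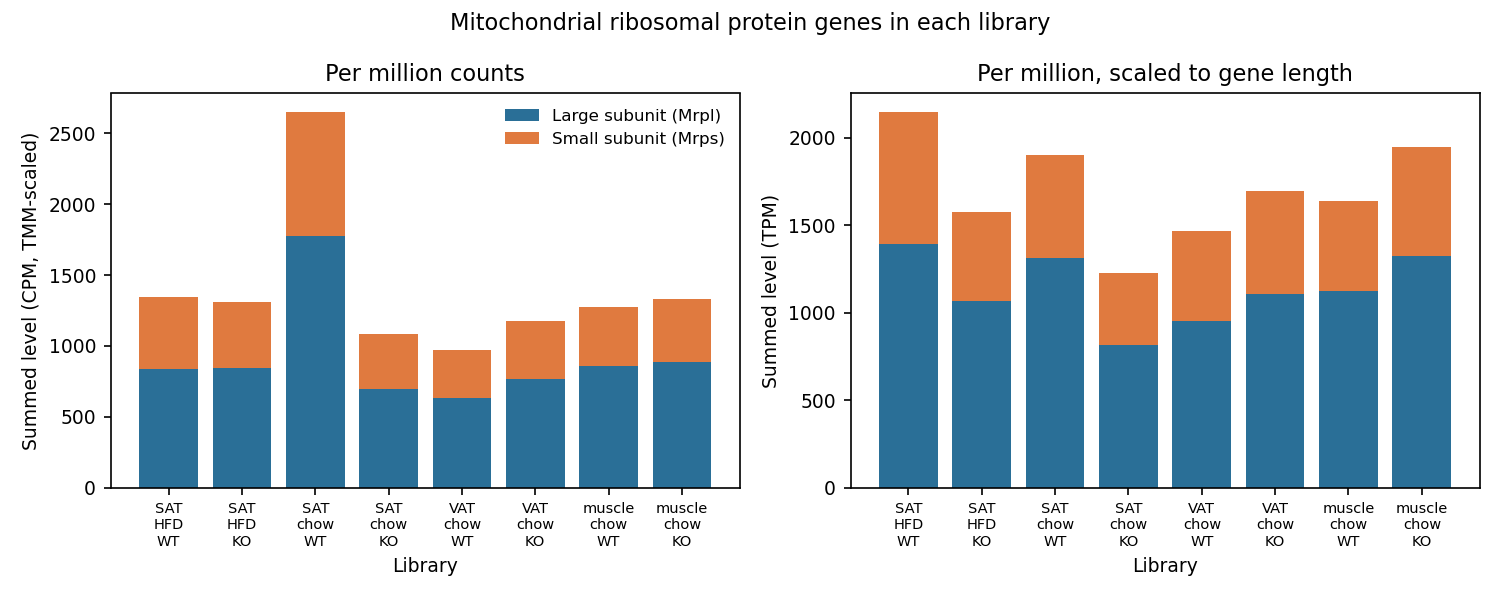
Summed level of the large-subunit (blue) and small-subunit (orange) genes in each of the 8 libraries, in TMM-scaled CPM (left) and in TPM (right). In CPM the SAT chow WT library reaches 2649 and the others 969 to 1345, whereas in TPM it reaches 1903, within the range of the others (1226 to 2146).

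Scaling to gene length changed which library was extreme. In TPM the members summed to 2146 and 1576 in SAT HFD (WT, then KO), 1903 and 1226 in SAT chow, 1467 and 1698 in VAT and 1636 and 1946 in muscle. On that scale the SAT chow KO library was the lowest, lowest of the 8 for 23 of 77 members (5.16% of all genes) and highest for 0 (7.18%). The SAT chow WT library was the highest for 13 members (3.71% of all genes) and the SAT HFD WT library for 29 (22.9%). The members are short genes, with a median length of 2213.5 bases against 3759 over all genes tested. Relative to the nuclear OXPHOS subunits, whose products join those that these ribosomes make, the members' TPM was 21.89% and 21.95% in SAT chow (WT, then KO), 25.4% and 28.5% in SAT HFD, 21.01% and 21.37% in VAT and 19.4% and 21.9% in muscle.

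**Figure D2:**
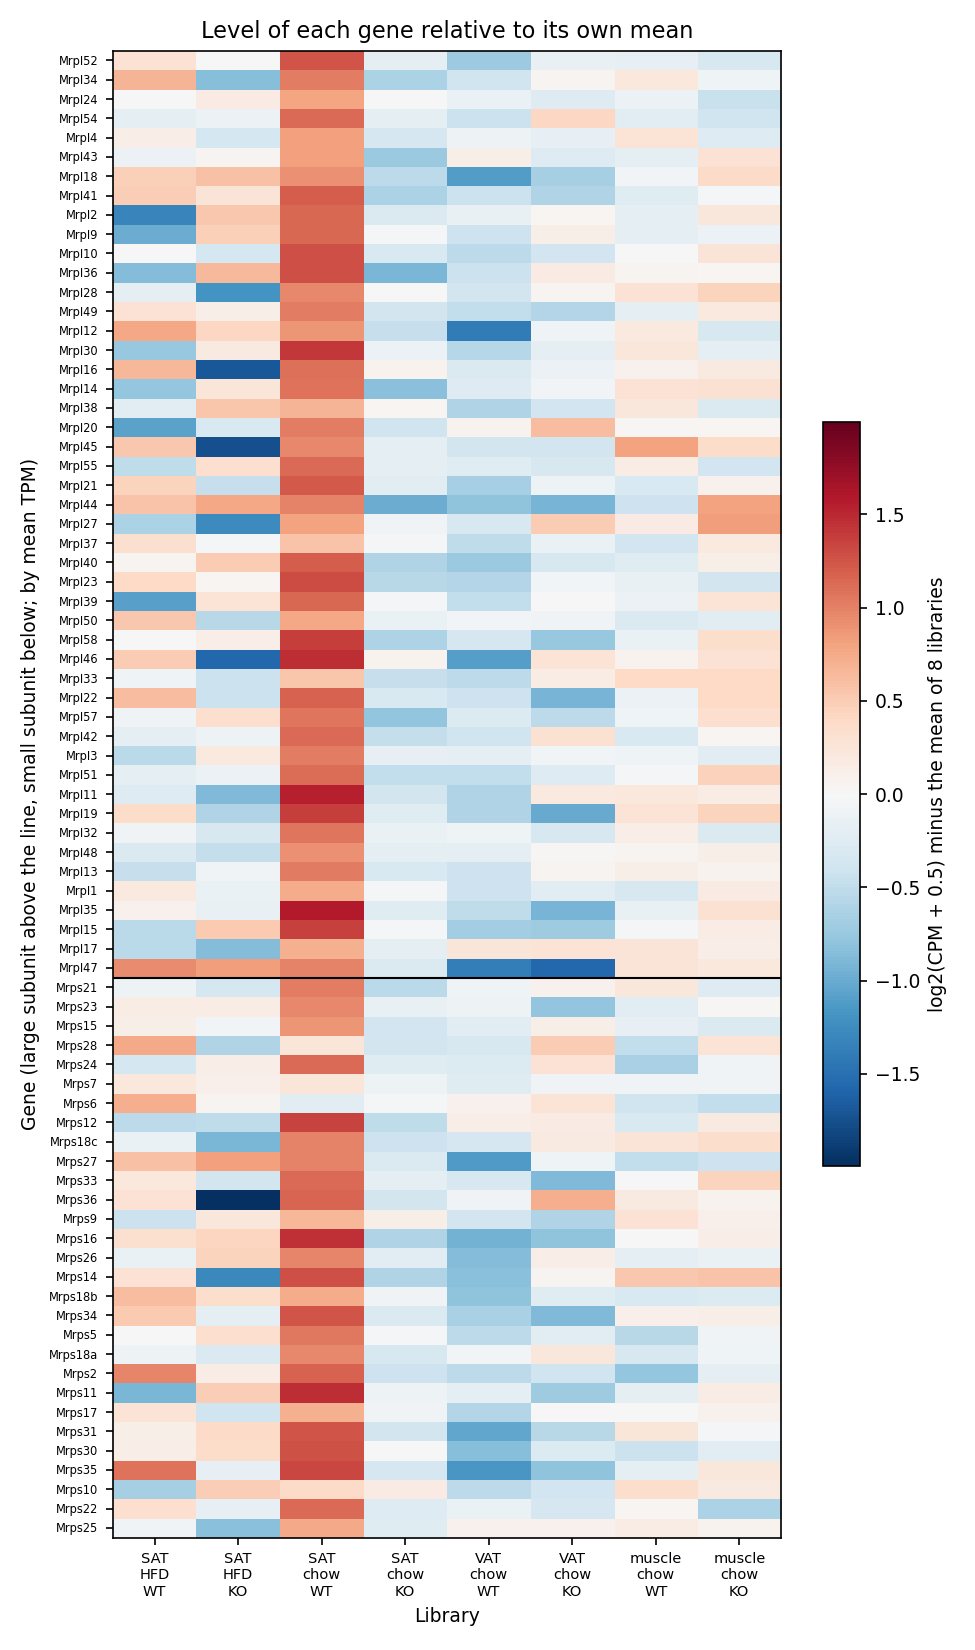
Level of each of the 77 measured genes in each library, as log2(CPM + 0.5) minus that gene's mean over the 8 libraries, large-subunit genes above the line and small-subunit genes below it, each ordered by mean TPM. The SAT chow WT column is red for nearly all genes, and it is the highest library for 73 of 77.

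Whether KO changed the genes across tissues was tested over the 4 pairs with edgeR's quasi-likelihood test, the pair as a block, adjusting over 16971 genes. None of the 77 members passed an adjusted p of 0.05 in either direction (lowest adjusted p = 0.9996), beside 0.00589% of all genes higher and 0% lower. None had an unadjusted p under 0.05 either (1.05% of all genes higher, 0.577% lower). DESeq2's Wald test called 0 members, beside 0.112% of all genes. The members' median log2 fold change of KO over WT was -0.28, with 67 negative and 10 positive, against 0.03 for all genes. That median was carried by the SAT chow pair: without it the median was 0.07.

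The lowest unadjusted p belonged to *Mrpl45*, whose mitochondria-specific protein sits near the exit tunnel at the inner membrane. It counted 194 and 69 in SAT HFD (WT, then KO), 607 and 271 in SAT chow, 132 and 202 in VAT and 546 and 336 in muscle. Its KO level was lower in 3 pairs and level with WT in VAT after scaling (14.7 and 14.8 CPM). The log2 fold change across pairs was -0.97 (SE 0.42, edgeR unadjusted p = 0.0515, adjusted p = 0.9996). *Mrpl4*, which has a bacterial homologue, counted 309 and 411, 1158 and 516, 340 and 497, and 799 and 460 in the same order, with a log2 fold change of -0.56 (SE 0.25, edgeR unadjusted p = 0.0580). *Mrpl19*, *Mrpl34* and *Mrps22* followed at -0.73, -0.79 and -0.73 (edgeR unadjusted p = 0.105, 0.119 and 0.151).

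Within each pair there is 1 library of each genotype, so no test of genotype could be made. A ratio is given with a 95% interval from the exact conditional binomial distribution, which covers counting error only and not the spread between mice. Such intervals are narrow and lay off 0 for many genes in each pair, so that share of all genes is given beside each count of members.

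In SAT chow, 76 of 77 members were lower in KO than in WT, and the interval lay below 0 for 75 of them, against 40.2% of all genes. It lay above 0 for 0 members, against 41.1% of all genes. The median log2 ratio was -1.40, against 0.00 for all genes. The members also moved by a like amount, with an interquartile range of 0.53 on the log2 scale against 1.93 over all genes tested. All 48 measured large-subunit genes had an interval below 0. At least 2-fold lower were 62 members in SAT chow (19% of all genes), 12 in SAT HFD (16.4%), 0 in VAT (6.83%) and 0 in muscle (6.07%). At least 2-fold higher were 0 members in SAT chow (26.1%), 8 in SAT HFD (18.1%), 4 in VAT (8.26%) and 1 in muscle (8.76%).

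The lowest ratio in that pair was that of *Mrpl36*, which has a bacterial homologue, with 546 counts in WT and 112 in KO (log2 ratio -2.28, 95% interval -2.59 to -1.99). *Mrps16*, a gene with a bacterial homologue that is mutated in a human disorder of mitochondrial translation, counted 660 and 153 (-2.10, -2.37 to -1.85). *Mrpl44*, whose protein has an RNase III-like fold, counted 325 and 76 (-2.08, -2.47 to -1.73). *Mrpl58*, a peptidyl-tRNA hydrolase that frees stalled ribosomes, counted 705 and 171 (-2.04, -2.29 to -1.80). *Mrpl14* counted 306 and 75 (-2.02, -2.41 to -1.66).

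In the other pairs these genes varied each in its own way. *Mrpl36* counted 50 and 279 in SAT HFD (WT, then KO; log2 ratio 1.57), 89 and 208 in VAT (0.62) and 230 and 189 in muscle (-0.02). *Mrps16* counted 127 and 257 in SAT HFD (0.11), 66 and 112 in VAT (0.16) and 235 and 216 in muscle (0.14). *Mrpl44* counted 103 and 222 in SAT HFD (0.20), 49 and 68 in VAT (-0.13) and 119 and 240 in muscle (1.27).

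Genes chosen by role were lower in SAT chow KO too. *Mrpl12*, whose protein also binds the mitochondrial RNA polymerase, counted 475 and 181 (log2 ratio -1.39), and *Mrps12*, part of the decoding centre, 388 and 102 (-1.92). *Mrpl3* counted 1016 and 444 (-1.19), *Mrps22* 275 and 100 (-1.45) and *Mrps34* 363 and 119 (-1.60). Of the 3 paralogues that share 1 bacterial ancestor, *Mrps18a* counted 493 and 197 (-1.32), *Mrps18b* 276 and 154 (-0.84) and *Mrps18c* 264 and 95 (-1.47). Only *Mrps18c* was classed here as a bacterial homologue. *Mrps30* counted 578 and 234 (-1.30), and *Mrps36*, the dehydrogenase component, 242 and 78 (-1.62).

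*Mrps6* was the member with a ratio above 0 in SAT chow. It counted 216 in WT and 247 in KO (log2 ratio 0.20, 95% interval -0.07 to 0.47). Its exons share 19.9% of their bases with genes on the same strand, among them *Slc5a3*, a sodium/myo-inositol cotransporter gene, which counted 88 in WT and 2141 in KO (4.60). The part of the shared bases in its value was not tested. *Mrps10* counted 334 and 285 (-0.23, -0.46 to 0.01), the other member whose interval spanned 0.

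**Figure D3:**
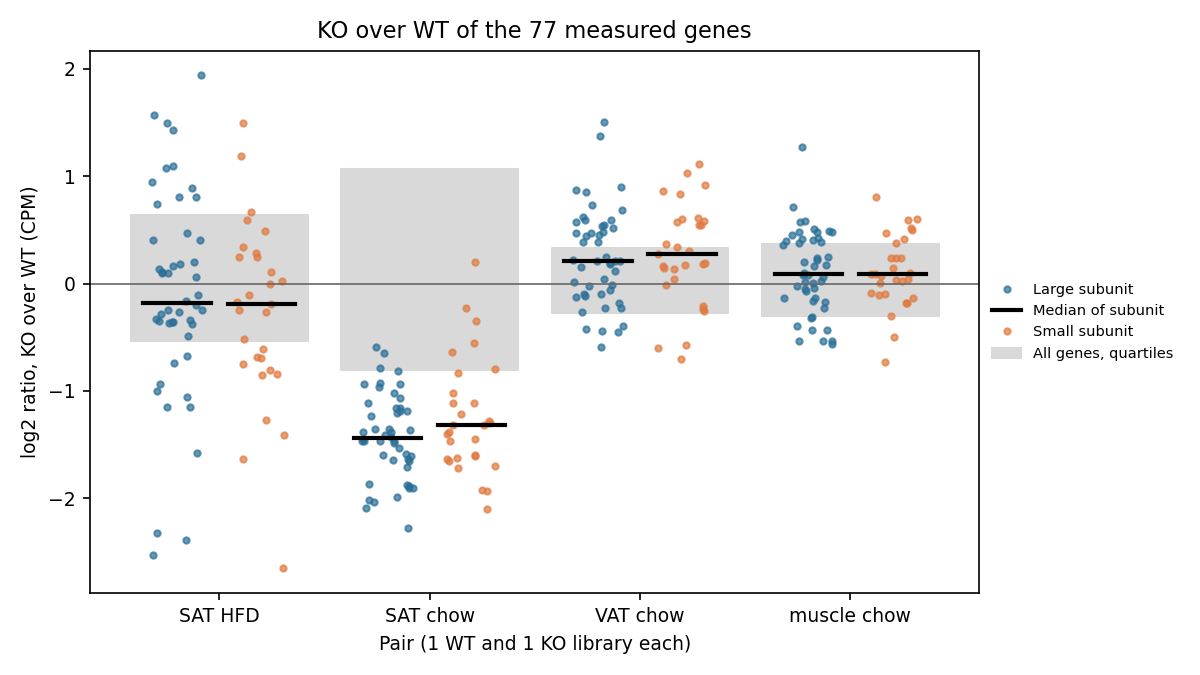
log2 ratio of KO over WT for each of the 77 measured genes in each pair, large-subunit genes in blue and small-subunit genes in orange, with black bars at the subunit medians and grey bands for the quartiles of all genes measured in the pair. In SAT chow the subunit medians are -1.44 and -1.32 and lie below the grey band, while in the other pairs they lie within it.

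The lower values in SAT chow KO were shared by other translation genes. Over all genes in that pair the interval lay below 0 for 40.2% and above 0 for 41.1%. Of the 5 mitoribosomal proteins without an Mrp name, all had an interval below 0 (median -1.27): *Aurkaip1* counted 1382 and 507 and *Gadd45gip1* 670 and 222. The 12 mitochondrial translation factors had a median of -1.46 (11 below 0), led in abundance by the elongation factor *Tufm* with 1913 and 541 counts. The 25 genes of mitoribosome assembly and rRNA modification had a median of -1.12 (23 below, 1 above), and the 20 mitochondrial aminoacyl-tRNA synthetase genes -0.57 (13 below, 5 above). The 13 mitochondrially encoded proteins, which these ribosomes translate, had a median of -0.95. The 81 nuclear OXPHOS subunits had a median of -1.33 and the 78 cytosolic ribosomal proteins -1.53, so the members' median lay between the medians of these lists.

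The list taken as regulators of mitochondrial biogenesis held *Ppargc1a*, *Ppargc1b*, *Pprc1*, *Nrf1*, *Gabpa*, *Gabpb1*, *Esrra*, *Yy1*, *Myc* and *Clpp*. These 10 genes had a median of 0.16 in SAT chow. The interval lay above 0 for 5 (41.1% of all genes) and below 0 for 3 (40.2% of all genes). Their log2 ratios ran from -1.33 to 1.51, with 1 gene at least 2-fold lower and 1 at least 2-fold higher. *Pprc1*, a coactivator of the PGC-1 family, counted 971 in WT and 2753 in KO (log2 ratio 1.51), *Gabpb1* 699 and 1373 (0.98) and *Yy1* 2866 and 4675 (0.71). *Gabpa*, the DNA-binding ETS subunit of GABP, counted 1384 and 1053 (-0.39) and *Nrf1* 979 and 1087 (0.15). The 11 genes of mitochondrial transcription and mRNA stability had a median of -0.44 (7 below, 3 above), among them *Tfam*, which packages mitochondrial DNA, with 1067 and 872 counts (-0.29). *Ppargc1a* was too low to read, with 24 and 12 counts in SAT chow and 0 to 20 in the other libraries.

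**Figure D4:**
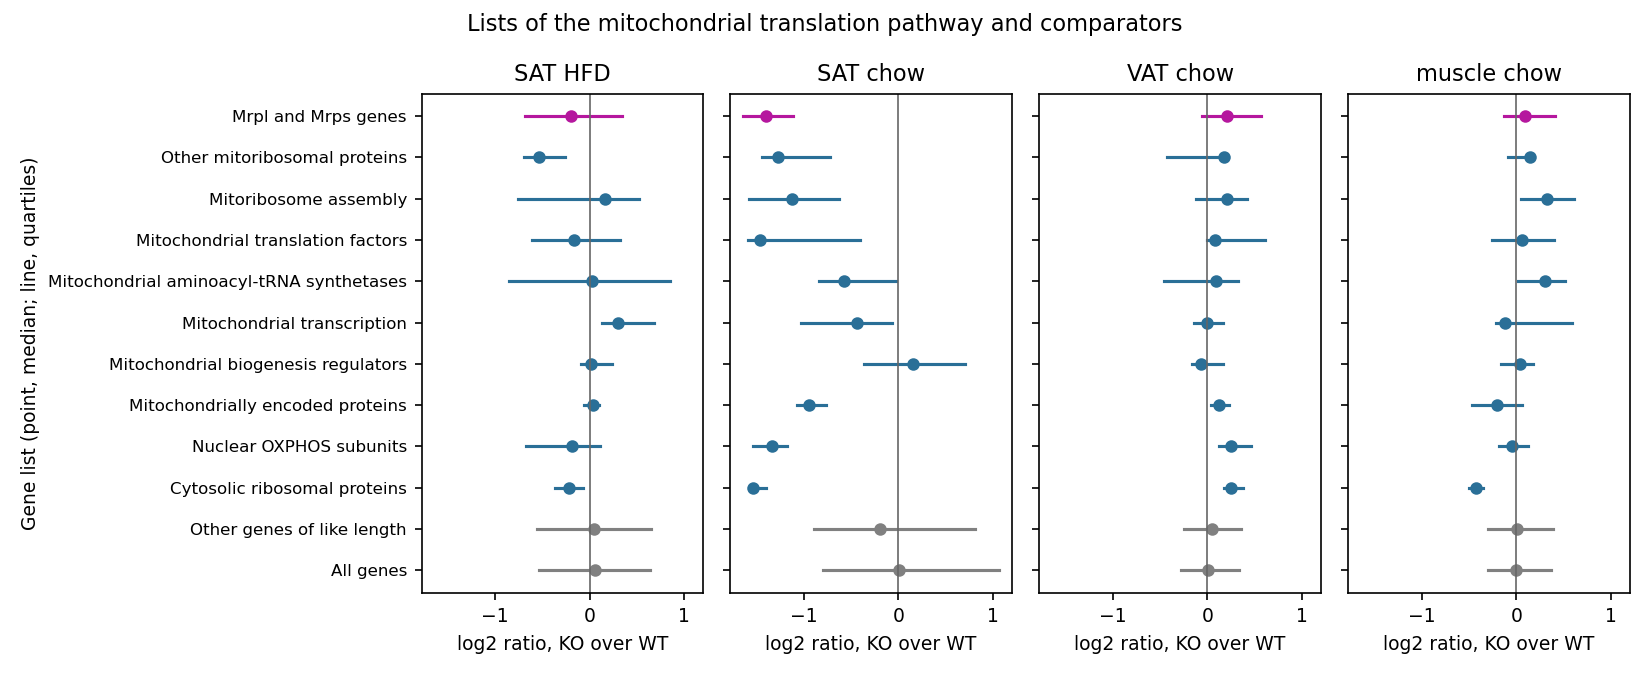
Median (point) and quartiles (line) of the log2 ratio of KO over WT in each pair for the Mrpl and Mrps genes (magenta), other lists of the pathway (blue) and comparator genes (grey). In SAT chow the members (-1.40), OXPHOS subunits (-1.33) and cytosolic ribosomal proteins (-1.53) lie together, and biogenesis regulators (0.16) lie near all genes (0.00).

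Several features moved with genotype in SAT chow beside the members. *Malat1* counted 4827 in WT and 96834 in KO (log2 ratio 4.33), against ratios of -0.47 to 0.26 in the other pairs. Ratios of all genes followed gene length, from a median of -0.45 in the shortest of 8 length bins to 0.80 in the longest. Other genes within the 10th to 90th percentile of the members' length had a median of -0.20. With the trend on length removed the members' median was -1.02, and on the TPM scale it was -0.68 with all genes at 0.72. Summed stromal markers went from 777 to 3392 CPM, T cell markers from 2464 to 1019 CPM and macrophage markers from 2019 to 815 CPM. Neutrophil markers went from 236 to 53 CPM and B cell markers from 1761 to 1203 CPM. Mural markers went from 48 to 169 CPM and endothelial markers from 648 to 800 CPM. Elsewhere stromal markers (WT, then KO) were at 2059 and 2129 CPM in SAT HFD, 1030 and 2236 in VAT and 696 and 1379 in muscle. T cell markers were at 1113 and 1279, 132 and 184, and 480 and 320 CPM in that order. The part of all these features in the members' ratios was not tested.

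**Figure D5:**
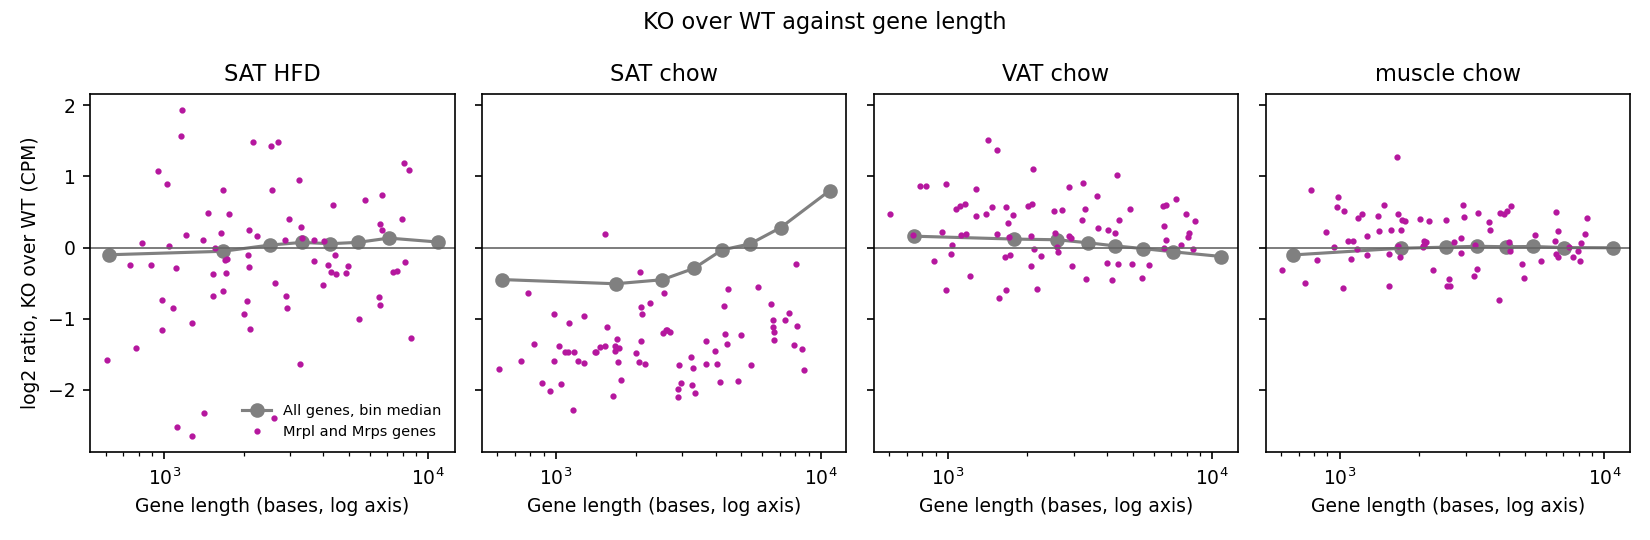
log2 ratio of KO over WT against gene length (log axis) in each pair, for each of the 77 genes (magenta) and as the median of all genes in 8 bins of length (grey). In SAT chow the grey line rises from -0.45 to 0.80 and most of the members lie below it, with 2 of them in the longest bin, whereas in the other pairs they lie on both sides of it. *Mrps6* (0.20) is the member with a ratio above 0 there.

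In SAT HFD the members did not move together. The interval lay below 0 for 29 members (33.2% of all genes) and above 0 for 20 (39.4% of all genes), with a median log2 ratio of -0.19 against 0.06 for all genes. The members' ratios ran from -2.65 to 1.94, with an interquartile range of 1.02 on the log2 scale against 1.07 over all genes tested. *Mrps36* counted 55 in WT and 16 in KO (log2 ratio -2.65, 95% interval -3.59 to -1.86) and *Mrpl16* 109 and 35 (-2.53, -3.14 to -1.98). *Mrpl45* was at -2.39, *Mrpl46*, a mitochondria-specific gene, at -2.32 (65 and 24 counts) and *Mrps14* at -1.64 (130 and 78).

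The WT library of SAT HFD was the shallowest of the 8. The highest ratio in the pair was that of *Mrpl2*, which has a bacterial homologue at the peptidyl transferase centre, with 39 and 281 counts (1.94, 1.46 to 2.47). *Mrpl36* was at 1.57, *Mrps11* at 1.49 (27 and 143 counts), *Mrpl9* at 1.49 (119 and 627) and *Mrpl39* at 1.43 (41 and 207). *Mrps11* and *Mrpl46* start from opposite strands of 1 locus on chromosome 7, with overlapping exons, and their ratios in this pair had opposite signs.

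In VAT the interval lay above 0 for 33 members, against 26.6% of all genes, and below 0 for 5, against 24.7%, comparing the library labelled KO with WT. The median log2 ratio was 0.21 against 0.01 for all genes. *Mrpl46* had the highest ratio, 25 and 109 counts (1.51, 0.88 to 2.21), followed by *Mrpl12* with 51 and 201 (1.37). *Mrps27*, an RNA-binding small-subunit protein, counted 51 and 168 (1.11), *Mrps26* 112 and 347 (1.03) and *Mrps14* 76 and 218 (0.91). The 5 with an interval below 0 were *Mrps23* with 202 and 188 counts (-0.71), *Mrps33* with 74 and 74 (-0.60), *Mrps11* with 61 and 62 (-0.58), *Mrpl58* with 117 and 131 (-0.44) and *Mrpl43* with 182 and 210 (-0.40).

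In muscle the interval lay above 0 for 26 members (27.1% of all genes) and below 0 for 12 (28.9% of all genes), with a median log2 ratio of 0.09 against 0.00. *Mrpl44* was the highest at 1.27 (0.95 to 1.61), and *Mrps28* counted 122 and 178 (0.81), *Mrpl27* 112 and 153 (0.71), *Mrps2* 97 and 123 (0.60) and *Mrps24* 186 and 234 (0.59). *Mrps22*, a mitochondria-specific gene mutated in human mitochondrial disease, was the lowest with 126 and 63 counts (-0.73, -1.20 to -0.29). *Mrpl55* was at -0.56, and *Mrpl38*, *Mrpl12* and *Mrpl4* were each at -0.53. The cytosolic ribosomal proteins went the other way in muscle, with a median of -0.42 and 72 of 78 intervals below 0.

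No member had an interval off 0 on the same side in all 4 pairs, against 0.934% lower and 1.04% higher of the 13598 genes measured in every pair. The interval lay below 0 in 3 pairs for 6 members (8.95% of those genes) and above 0 in 3 pairs for 4 members (9.05%). *Mrpl4*, *Mrpl45* and *Mrps22* were lower in SAT HFD, SAT chow and muscle and spanned 0 in VAT. *Mrpl12* and *Mrpl34* were lower in those pairs and higher in VAT, and *Mrps33* was lower in all but muscle, where it was higher. *Mrps5*, *Mrps24*, *Mrpl39* and *Mrpl40* were higher in all but SAT chow. *Mrpl37*, *Mrpl21* and *Mrps28* were lower in both SAT pairs and higher in VAT and muscle, 3 members against 1.11% of those genes.

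The subunits were compared by their medians and by their summed TPM. The median log2 ratio of large minus small subunit genes was 0.01 in SAT HFD, -0.12 in SAT chow, -0.07 in VAT and -0.0009 in muscle. The interquartile range of a subunit's ratios in a pair was 0.47 to 1.0, a spread over genes that gives no error for these differences. With 1 library per genotype, whether the subunits differed was not tested. Large over small summed TPM was 1.84 and 2.10 in SAT HFD (WT, then KO), 2.21 and 1.97 in SAT chow, 1.84 and 1.87 in VAT and 2.18 and 2.12 in muscle. It was higher in KO in SAT HFD and VAT and lower in KO in SAT chow and muscle. In SAT chow the bacterial homologues and the mitochondria-specific genes had the same median, -1.40, with intervals below 0 for 43 of 45 and 32 of 32 (40.2% of all genes).

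Tissue and diet were compared in the same edgeR fit, with 2 libraries a level, 1 of each genotype, so the 3 contrasts with SAT chow share its libraries. None of the 77 members had an adjusted p under 0.05 in any of the 4 contrasts by edgeR or by DESeq2's Wald test. DESeq2's Wald test called 13.4% of all genes in VAT over SAT chow and 6.2% in muscle over SAT chow, both directions together. It called 7.38% in muscle over VAT and 1.45% in SAT HFD over SAT chow. By edgeR 3.13% of all genes passed higher and 1.87% lower in VAT over SAT chow, and 1.10% and 0.165% in muscle over SAT chow. For muscle over VAT the edgeR shares were 0.990% and 1.03%, and for SAT HFD over SAT chow 0% and 0%. At an unadjusted p under 0.05, 7 members were lower in VAT than in SAT chow (10.8% of all genes) and 1 was higher in muscle than in VAT (6.66%). In the other contrasts and directions 0 members passed, against 9.92% of all genes higher in VAT than in SAT chow, 6.13% lower in muscle than in VAT, 6.91% higher and 4.63% lower in muscle than in SAT chow, and 0.448% higher and 8.84% lower in SAT HFD than in SAT chow. Median log2 fold changes against SAT chow were -0.50 in SAT HFD, -0.76 in VAT and -0.46 in muscle, against -0.32, -0.13 and -0.11 for all genes, and 0.27 for muscle over VAT (0.06 for all genes).

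*Mrpl47*, which has a bacterial homologue, had the lowest p in both contrasts with VAT. It counted 79 and 137 in SAT HFD (WT, then KO), 191 and 74 in SAT chow, 17 and 22 in VAT and 113 and 91 in muscle. Both VAT libraries were below all others, and the log2 fold change was -2.14 for VAT over SAT chow (SE 0.75, edgeR unadjusted p = 0.0213, adjusted p = 0.158) and 1.97 for muscle over VAT (SE 0.74, edgeR unadjusted p = 0.0291, adjusted p = 0.294). The other 6 members under 0.05 in VAT over SAT chow were *Mrpl19*, *Mrpl15*, *Mrps35*, *Mrps16*, *Mrps9* and *Mrpl35*, at -0.90 to -1.61.

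The tissue values depended on which SAT chow library was the reference. Among WT libraries the members' median log2 ratio against SAT chow WT was -1.03 in SAT HFD, -1.48 in VAT and -1.12 in muscle, with 69, 76 and 74 of 77 intervals below 0 (50.7%, 44.4% and 42.9% of all genes) and 2, 1 and 0 above (31.9%, 39.9% and 40.0%). Among KO libraries the median against SAT chow KO was 0.20 in SAT HFD, 0.08 in VAT and 0.31 in muscle, with 38, 27 and 41 intervals above 0 (25.5%, 35.3% and 31.3% of all genes) and 15, 14 and 3 below (48.8%, 38.9% and 37.7%). In the fit without the SAT chow WT library the medians turned to 0.40, 0.11 and 0.44. Without the SAT chow KO library they were -1.12, -1.49 and -1.05, and edgeR then called 0, 20 and 2 members, against 2.62%, 20.9% and 10.5% of all genes tested in that fit. Muscle over VAT, which does not use SAT chow, had a median of 0.39 among WT libraries, with 38 intervals above 0 (36.4% of all genes) and 4 below (33%). Among KO libraries it was 0.16, with 31 above (37.2%) and 14 below (34%). In the fit it turned to -0.10 without the VAT WT library.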

How the data were processed

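Per the labels, RNA of sorted GFP+ cells was extracted with an RNeasy kit and made into libraries with a SMARTER mRNA-Seq kit, while the methods of the study name Trizol for RNA. The submitters' processing notes name HISAT2 2.0.5 and GRCm38/mm10. The counting program, its version and its use of strand are not given in the sources used here. The authors deposited 1 table of raw counts per gene with gene length, biotype and name, and all 8 libraries were mapped by their labels.

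Counts were analysed in R 4.3.3. For the tests across pairs and tissues, genes averaging 10 counts or more (16971 of 54532) were fitted with edgeR 4.0.16 (TMM scaling, robust quasi-likelihood, genotype plus a 4-level block of tissue and diet) and adjusted by Benjamini-Hochberg over all of them. SEs were taken from the fold change and its F statistic. The pair is given by tissue and diet in the labels. DESeq2 1.42.0 (Wald test) was an alternative. With 1 library per genotype at each level, 3 residual degrees of freedom were left. The spread that the p-values measure is the disagreement of the KO over WT ratio between the 4 pairs. That also holds in the tissue contrasts, so a genotype difference seen in SAT chow alone adds to it. A count of 0 members called therefore does not show that the genes were unchanged. Nothing in the labels ties the libraries to separate mice. Within a pair, log2 ratios of TMM-scaled CPM used a prior count of 0.5, genes averaging 10 or more over the pair, and exact conditional binomial 95% intervals. TPM was computed from counts and the table's gene lengths. The fits were tested on simulated counts.

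Members and lists were chosen with earlier results of these data known. Members were named where they had the 5 lowest p in KO over WT, up to 5 of the largest ratios each way in a pair, interval calls shared by pairs, the 5 highest or lowest mean TPM, or by role. *Mrps6*, *Mrps10* and *Mrpl53*, the members that differ from the rest, those under an unadjusted p of 0.05 in a tissue contrast, and those with shared exons or neighbours were named after their values were seen. Overlaps used GENCODE M21 and promoters RefSeq GRCm38.p6 (Python 3.11.15, matplotlib 3.10.9). Alternatives were other scalings, count minimums, prior counts, the mean, length correction, subunit by structure, no block and leaving out pairs or libraries. TPM ratios and TMM without mitochondrially encoded genes were added after seeing the data.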

Additional observations from a re-analysis of the deposited data

Results flagged for a closer look

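The members' median log2 ratio of KO over WT was below 0 in both SAT pairs and above 0 in VAT and muscle. The difference of the medians was -0.41 between SAT HFD and VAT, -0.28 between SAT HFD and muscle, -1.61 between SAT chow and VAT, and -1.49 between SAT chow and muscle. These 4 differences were not tested, since each pair has 1 library per genotype. The values for VAT compare WT with the library labelled KO, in which *Tert* does not show the genotype. Beside the SAT chow values, *Malat1* had a log2 ratio of 4.33 in that pair.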

How the results depend on the processing

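Of 186 alternative values of 18 results, 147 kept their call or, for a median, stayed within its order-statistic interval over the members, and 39 moved. That interval gives the spread over the members, which are not replicates, and no error between libraries. Library scaling cancels in the large minus small difference, so its values under other scalings could not move. The fits' alternative minimums (1 count in total, a mean of 50 counts) kept the same 77 members. So did a minimum of 1 count within a pair, apart from *Mrpl53*, which has no counts. The members' medians could therefore hardly move under these minimums. The 0 members called in KO over WT remained 0 under every alternative run, including without the tissue and diet block. The same runs called from 0% to 0.142% of all genes tested. Leaving out single pairs put the median of KO over WT across pairs between -0.41 and 0.067, the latter without SAT chow. Leaving out single libraries put the median between -1.12 and 0.40 for SAT HFD over SAT chow, -1.49 and 0.11 for VAT over SAT chow, -1.05 and 0.44 for muscle over SAT chow, and -0.10 and 0.63 for muscle over VAT, and members called between 0 and 20 for VAT over SAT chow and 0 and 2 for muscle over SAT chow, both highest without SAT chow KO, where 20.9% and 10.5% of all genes tested were called. A lone library is then assumed to vary like the other levels.

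For SAT HFD, VAT and muscle over SAT chow the medians were -0.24, -0.57 and -0.33 with DESeq2 size factors and -0.24, -0.58 and -0.33 with its Wald test. Library totals gave -0.17 for SAT HFD and -0.34 for muscle, and upper quartile scaling -0.18 for SAT HFD. All genes moved alike, from -0.32 to between -0.09 and -0.03 for SAT HFD.

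Within SAT chow the median of KO over WT was -1.29 with DESeq2 size factors, -1.17 with library totals, -1.21 with upper quartile scaling (all genes at 0.11, 0.23 and 0.19), -1.02 with the length trend removed and -0.68 in TPM. Elsewhere TPM gave -0.51 in SAT HFD, 0.13 in VAT and 0.27 in muscle, with all genes at -0.25, -0.08 and 0.18. Upper quartile scaling gave 0.15 in VAT (all genes at -0.05) and library totals 0.25 in muscle (all genes at 0.16). TPM was added after seeing the data.

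Depth limits single ratios most in SAT HFD WT, with 6214269 counts. A single library per genotype and pair, unstated strand and unstated pooling of mice limit every value.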
